A study of Mus musculus with 12 samples.

Results

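The response of the gastrocnemius, a mixed but mainly fast calf muscle, to corticosterone (CORT, the main glucocorticoid of rodents) was described in mice whose muscle kept the glucocorticoid receptor (GR). Its members were 2 of the 12 RNA-seq libraries of the series, CORT-treated and vehicle-treated GRfl/fl gastrocnemius, and the 13543 of 22273 listed genes that were above 0 in all 4 gastrocnemius libraries. GRfl/fl mice were male C57BL/6J animals with floxed alleles of the receptor gene *Nr3c1* and no Cre. Both groups were 8 weeks old at the start and drank water with 1% ethanol for 4 weeks, which for the CORT group also held corticosterone at 100 µg/mL. The same pair of treatments in GR-mKO mice, in which the floxed alleles were combined with a Cre transgene under the *Acta1* promoter (skeletal muscle actin, active in myofibres), is given beside it. That Cre acts in myofibres, so other cells of the muscle keep the receptor in both genotypes. Each library was made from pooled RNA of 3 mice, and each group had 1 library. No difference below therefore has a replicate check, and no p-value is given.

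Corticosterone binds the GR in the cytosol, where the receptor is held by heat shock protein chaperones, and the bound receptor moves to the nucleus and acts on gene transcription. In skeletal muscle it is known to raise ubiquitin ligases that mark proteins for the proteasome, to oppose insulin and IGF-1 signalling, and to spare glucose in favour of fat. In immune and connective tissue cells it represses inflammatory and matrix genes, and these cells are part of any whole-muscle sample.

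Library totals were 19833928 and 19394572 expected counts for vehicle- and CORT-treated GRfl/fl muscle, and 20073256 and 20357253 for GR-mKO muscle. Levels are given as CPM, the library's counts scaled to 1000000 in all. A change is log2((CPM + 0.5)/(CPM + 0.5)) of CORT over vehicle, and a gene was counted as higher or lower, and is said to have risen or fallen, when it changed at least 2-fold on that scale. An interval in parentheses is the exact Clopper-Pearson 95% interval of the ratio of counts, without the added 0.5 CPM, and covers counting error only. A count of 3 corresponds to 0.147 to 0.155 CPM. Genes that mark skeletal muscle were abundant in both GRfl/fl libraries, with *Ckm* (muscle creatine kinase) going from 14144 to 9802 CPM, *Acta1* from 43035 to 35757 CPM and *Myh4* (fast myosin) from 35764 to 30831 CPM, none of them past 2-fold.

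Of the 13543 genes, 441 (3.26%) rose and 639 (4.72%) fell with CORT in GRfl/fl muscle, against 205 (1.51%) and 680 (5.02%) in GR-mKO muscle. The median change of all genes was -0.08 in GRfl/fl and -0.10 in GR-mKO muscle, and 77.4% of genes stayed within 1.5-fold in GRfl/fl muscle. The split between directions rested on the scaling. Median-of-ratios factors moved the median change to 0.01 and gave 544 higher and 518 lower genes in GRfl/fl muscle. In GR-mKO muscle TMM factors moved the median to 0.04, a shift of over 0.1, and gave 266 higher and 492 lower genes. Of the 441 genes that rose in GRfl/fl muscle, 65 also rose in GR-mKO muscle, which is 14.7% of the former and 31.7% of the latter, and 19 fell there. Of the 639 that fell, 178 also fell in GR-mKO muscle, 27.9% and 26.2% of the respective lists, and 13 rose. The genes that rose in GRfl/fl muscle had a median change of 0.13 in GR-mKO muscle, and those that fell a median of -0.44. Whether a response differs between genotypes cannot be tested with 1 library per group.

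**Figure D1:**
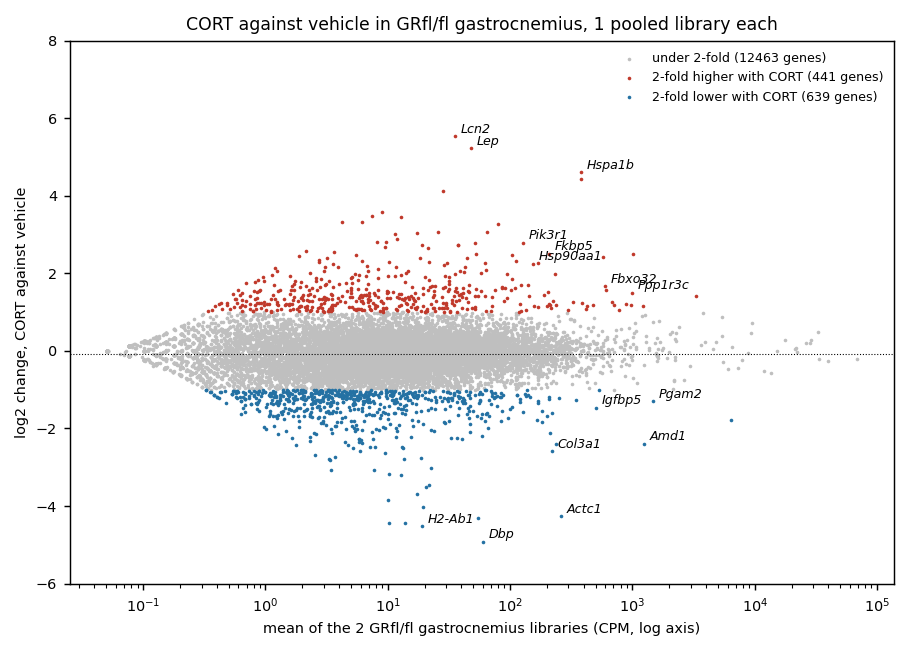
Each point is a gene, placed by its mean level in the 2 GRfl/fl gastrocnemius libraries (CPM, log axis) and its log2 change with CORT; 441 genes at least 2-fold higher are red, 639 at least 2-fold lower are blue, and the dotted line is the median of all genes, -0.08. The largest changes at moderate and high level include rises of *Hspa1b*, *Pik3r1* and *Fkbp5* and falls of *Dbp*, *Actc1*, *Amd1* and *Pgam2*.

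The genes were read by pathway and family in 61 lists. For each list the share of tested members that rose or fell is to be read against the 3.26% and 4.72% of all genes. Lists with medians furthest above that of all genes were adipocyte markers, clock activators and heat shock proteins. Those furthest below were the antigen-presentation genes of major histocompatibility complex (MHC) class II, fibroblast markers, the output and negative arm of the clock, B cell and plasma cell markers (5 genes) and collagens. The B cell and plasma cell median, -0.71, depended strongly on the added CPM and the filter. Proteasome subunits, autophagy genes, the tricarboxylic acid cycle, cytosolic ribosomal proteins and fast-fibre genes had medians within 0.1 of 0, although single members moved. Under TMM or median-of-ratios factors the medians of complement, cytosolic ribosomal, fast-fibre, branched-chain amino acid, proteasome, nuclear-encoded respiratory, smooth muscle and tricarboxylic acid cycle genes changed sign, all of them near 0.

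**Figure D2:**
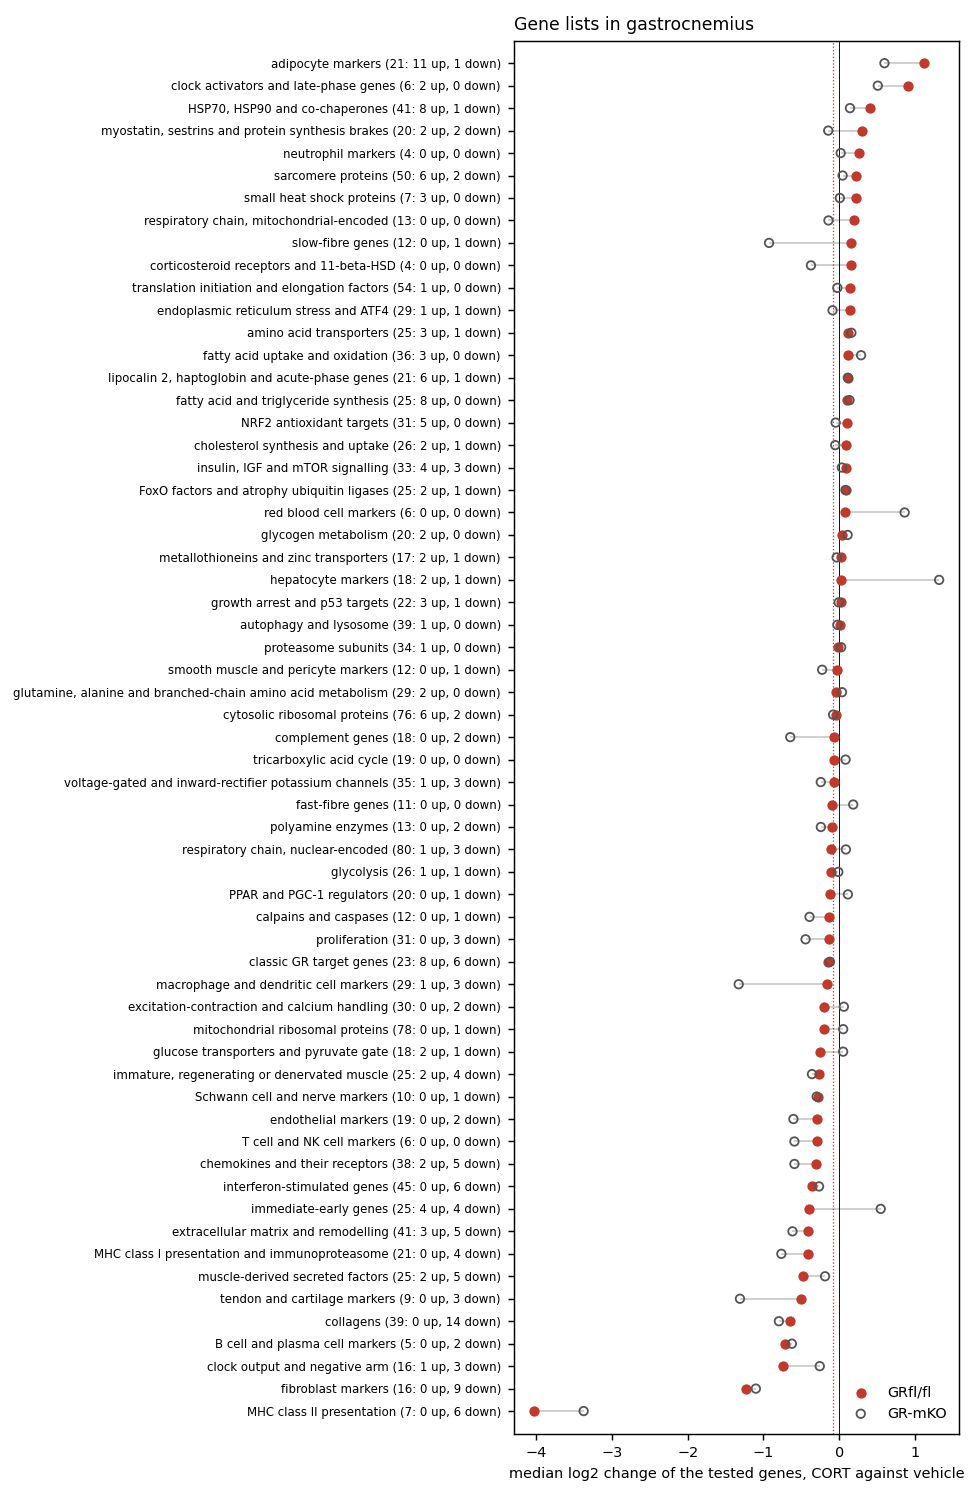
Median log2 change with CORT of the tested genes of each list, in GRfl/fl (filled red) and GR-mKO (open grey) gastrocnemius; brackets give the number tested and the number 2-fold higher (up) and lower (down) in GRfl/fl muscle, and the dotted line is the median of all genes in GRfl/fl muscle. MHC class II presentation lies at -4.03 and adipocyte markers at 1.11, while macrophage, slow-fibre, hepatocyte and immediate-early lists lie far apart between the genotypes.

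The receptor gene itself went from 113 to 90.4 CPM in GRfl/fl muscle, a change of -0.32, and from 46.4 to 35.5 CPM in GR-mKO muscle. *Hsd11b1*, the enzyme that regenerates active glucocorticoid inside cells, went from 5.99 to 11.3 CPM (0.86) in GRfl/fl and from 16.6 to 10.1 CPM in GR-mKO muscle. Of 23 classic GR target genes 8 rose and 6 fell, so the list split into opposite directions around a median of -0.15. *Pik3r1* (chromosome 13, 101680563 to 101768217), a regulatory subunit of phosphoinositide 3-kinase that lies on the insulin pathway, had the largest rise. It stood at 31.9 CPM with vehicle and 223 CPM with CORT in GRfl/fl muscle, and at 32.5 and 21.9 CPM in GR-mKO muscle, so the CORT-treated GRfl/fl library was alone in being high. Its change was 2.78 (2.68 to 2.93). *Cdkn1a* (p21, a cell cycle inhibitor; chromosome 17, 29090976 to 29100727) showed the same arrangement, 37.3 and 188 CPM against 37.5 and 44.6 CPM, a change of 2.32 (2.22 to 2.45). *Fkbp5*, a co-chaperone that lowers the receptor's affinity for hormone, changed by 2.51 in GRfl/fl and -0.52 in GR-mKO muscle. *Sesn1*, a sestrin that restrains mTORC1, rose by 1.38 and *Zbtb16*, a zinc finger repressor, by 1.02; the corresponding GR-mKO changes were -0.45 and 0.03. *Pdk4*, a kinase that inhibits pyruvate dehydrogenase, was the member of this list that rose in both genotypes. It went from 406 to 967 CPM in GRfl/fl and from 214 to 969.9 CPM in GR-mKO muscle.

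Among the target genes that fell with CORT, *Sgk1*, a serum- and glucocorticoid-regulated kinase (chromosome 10, 21882184 to 21999903), stood at 259.7 CPM with vehicle and 75.2 CPM with CORT in GRfl/fl muscle, a change of -1.78 (-1.87 to -1.70), and at 211 and 217 CPM in GR-mKO muscle. *Arrdc2*, an arrestin-domain gene, fell from 147 to 51.5 CPM in GRfl/fl muscle, whereas both GR-mKO libraries lay well below these levels, at 7.95 and 8.21 CPM. *Ddit4* (REDD1), which restrains mTORC1, fell in both genotypes, from 27.8 to 7.52 CPM in GRfl/fl and from 41.2 to 4.72 CPM in GR-mKO muscle. The CCAAT/enhancer-binding factors *Cebpb* and *Cebpd* fell by 1.199 and 1.18. *Tsc22d3* (GILZ) changed by -0.81, *Klf9* by -0.36 and *Klf15*, a factor of amino acid breakdown, by -0.15, all short of 2-fold.

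**Figure D3:**
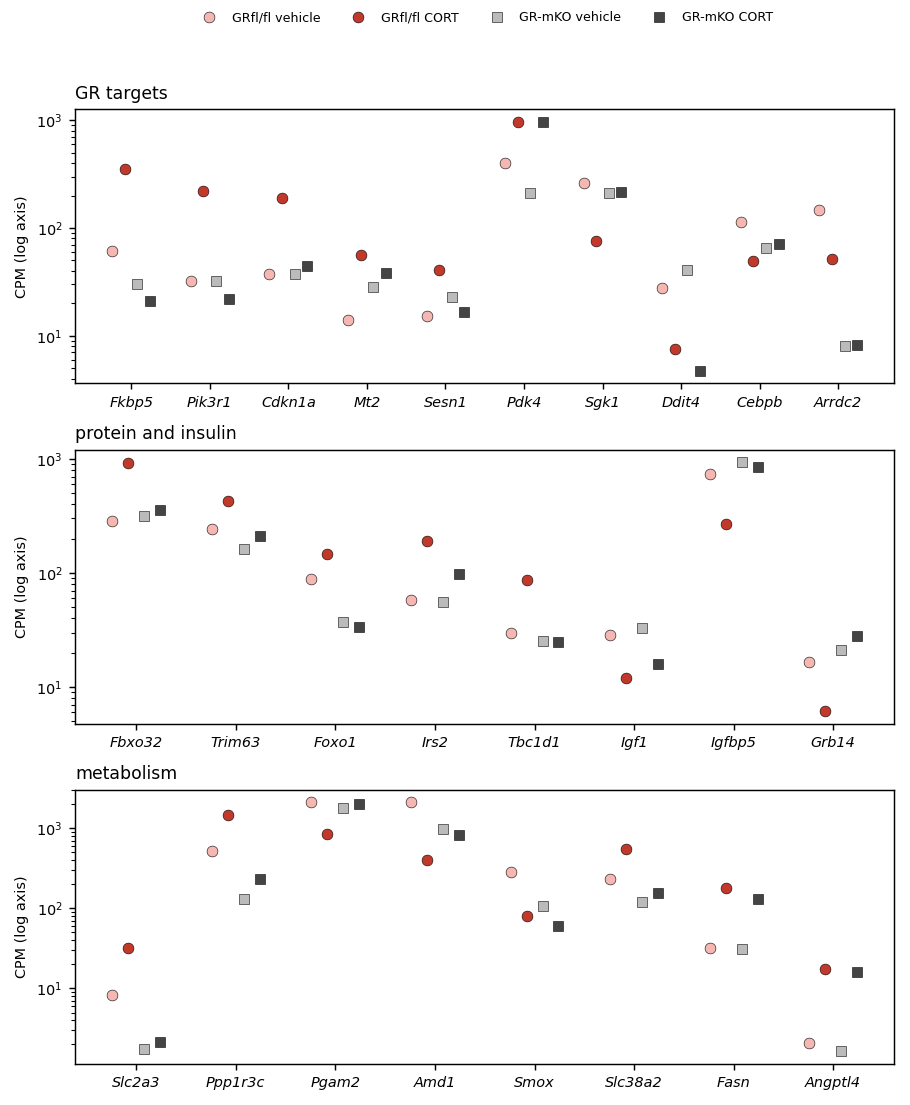
Level (CPM, log axis) of 26 genes in the 4 gastrocnemius libraries: GRfl/fl vehicle (light red circle), GRfl/fl CORT (red circle), GR-mKO vehicle (light grey square) and GR-mKO CORT (dark square), 1 pooled library each. For *Fkbp5*, *Pik3r1*, *Cdkn1a*, *Fbxo32*, *Tbc1d1* and *Slc2a3* the CORT-treated GRfl/fl library is far above the other 3, and for *Igfbp5*, *Pgam2* and *Amd1* it is below them.

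Few regulators and ligases of protein breakdown passed 2-fold, and almost none of the machinery they feed did. Of 25 FoxO factors and atrophy-related ubiquitin genes 2 rose, among them *Fbxo32* (atrogin-1, a muscle ubiquitin ligase), and *Foxo6* fell from 10.6 to 1.65 CPM (-2.37, -3.27 to -2.15). *Fbxo32* changed by 1.67 in GRfl/fl and 0.18 in GR-mKO muscle. *Trim63* (MuRF1), *Foxo1* and *Foxo3* had changes of 0.80, 0.75 and 0.66, against 0.37, -0.15 and -0.17 in GR-mKO muscle. *Trim55* and *Trim54*, the relatives of *Trim63*, changed by -0.59 and 0.21. Of 34 proteasome subunits 1 passed 2-fold and the median was -0.01. The exception was *Psma3*, whose vehicle-treated GRfl/fl library, at 16.8 CPM, was the low value among 39.9, 45.5 and 53.8 CPM. Of 39 autophagy and lysosome genes 1 rose, the autophagy receptor *Nbr1* (1.01). *Bnip3* (0.67), *Ctsl* (0.60, cathepsin L) and *Map1lc3a* (0.47) were higher by less, and *Ulk1*, the kinase that starts autophagy, went from 129.5 to 90.8 CPM. Calpains and caspases had a median of -0.13, with the fall of *Casp12* (-1.10) as the sole call among 12.

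Along the insulin and IGF pathway 4 of 33 genes rose and 3 fell. The ligand *Igf1* (chromosome 10, 87858265 to 87937042) fell from 28.5 to 12.04 CPM in GRfl/fl and from 32.7 to 15.8 CPM in GR-mKO muscle. The most abundant of the binding proteins by count, *Igfbp5*, fell from 741 to 268 CPM, a change of -1.46 (-1.51 to -1.42), and stood at 937 and 850.1 CPM in GR-mKO muscle. *Irs2*, an insulin receptor substrate, rose from 57.9 to 189 CPM (1.70) and *Irs1* changed by 0.36. *Grb14*, an inhibitor of the insulin receptor, fell by 1.35. The Rab GTPase-activating proteins that hold glucose transporter vesicles back until they are phosphorylated also moved: *Tbc1d1* (chromosome 5, 64156305 to 64351486) rose from 29.7 to 87.0 CPM in GRfl/fl muscle and read 25.1 and 25.0 CPM in GR-mKO muscle, and *Tbc1d4* rose by 1.04. *Akt2* changed by -0.42 and the insulin-responsive glucose transporter *Slc2a4* by -0.37. Among 20 genes of myostatin signalling and of brakes on protein synthesis, *Sesn1* and the activin subunit *Inhbb* (2.61 to 7.66 CPM) rose, *Ddit4* and *Smad3* (-1.15) fell, and the median was 0.31 against -0.14 in GR-mKO muscle. *Mstn* (myostatin) went from 82.1 to 105 CPM, a change of 0.36, and *Eif4ebp1*, which sequesters the cap-binding factor, from 62.8 to 101 CPM.

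In the contractile apparatus 6 of 50 sarcomere genes rose, several of them proteins of the Z-disc, and 2 fell. *Xirp1* (Xin, an actin-binding protein of damaged or loaded muscle; chromosome 9, 120013755 to 120023598) rose from 308 to 1731 CPM in GRfl/fl, a change of 2.49 (2.45 to 2.53), and from 143 to 322 CPM in GR-mKO muscle. *Ankrd1* (CARP, 1.82), *Csrp3* (muscle LIM protein, 1.63), *Lmod2* (1.19), *Pdlim5* (1.18) and *Flnc* (filamin C, 1.18) rose in GRfl/fl muscle, and their changes in GR-mKO muscle lay between -0.60 and 0.25. *Actc1*, the cardiac actin that adult muscle re-expresses when it is immature or denervated, changed by -4.26, against -0.20 in GR-mKO muscle. *Myl1*, the essential light chain of fast myosin, was listed at 9937 CPM with vehicle and 2884 CPM with CORT (-1.78), but its gene has 5 coding transcripts and each deposited entry carries a single transcript identifier. *Mylpf*, the regulatory light chain, moved the other way, from 2513 to 4975 CPM (0.98). GR-mKO muscle read 5105 and 7020 CPM, so the vehicle-treated GRfl/fl library was the one apart, and this gene has 4 coding transcripts. None of 11 fast-fibre genes passed 2-fold and 1 of 12 slow-fibre genes did, *Pln* (phospholamban, 2.77 to 1.13 CPM). The slow-fibre median was 0.16, against -0.93 in GR-mKO muscle, where 5 of the 12 fell. *Myh7*, slow myosin, went from 179.5 to 204 CPM in GRfl/fl and from 393 to 178 CPM in GR-mKO muscle, so the vehicle-treated libraries also stood apart.

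Of 30 genes of excitation-contraction coupling 2 fell, *Pln* and *Orai1*, the pore of store-operated calcium entry (57.1 to 23.3 CPM, -1.28). The junctional protein *Jph2* (-0.82) and the calcium buffer *Casq1* (-0.76) were lower by less, and the pump *Atp2a1* changed by 0.49. Among 25 genes of immature, regenerating or denervated muscle, *Actc1*, *Nrep* (40.3 to 4.56 CPM, -3.01), *Myl4* and *Chrng* fell, while *Myog* (myogenin) rose from 4.89 to 12.6 CPM and *Chrna1* (an acetylcholine receptor subunit) went from 18.6 to 27.4 CPM. *Chrng*, the fetal receptor subunit, was under 1 CPM in both GRfl/fl libraries. In the potassium channels the electrically silent subunit *Kcnf1* rose (1.67) and *Kcnj8* (-1.37), *Kcna5* (-1.05) and *Kcnh2* fell, 1 and 3 of 35 tested. *Kcnj8* is also a pericyte marker, and it was the sole member of the smooth muscle and pericyte list to pass 2-fold among 12.

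Genes of glucose handling moved in both directions. The transporter *Slc2a3* (GLUT3) rose from 8.19 to 32.0 CPM (1.90, 1.72 to 2.23) and was at 1.75 and 2.16 CPM in GR-mKO muscle. *Hk2*, the usual hexokinase of muscle, went from 272 to 195 CPM. *Pgam2*, the muscle phosphoglycerate mutase (chromosome 11, 5801640 to 5803733), fell from 2092 to 849.5 CPM (-1.30, -1.33 to -1.27), while GR-mKO muscle read 1764 and 2028 CPM. *Pfkm* (-0.98) and *Eno3* (-0.78), the muscle forms of phosphofructokinase and enolase, were lower by less than 2-fold, and *Aldoa* (0.45) and *Gapdh* (0.11) were above 0, so 1 of 26 glycolysis genes rose, 1 fell and the median was -0.11. Of the regulators of pyruvate dehydrogenase, *Pdk4* rose and *Pdp1*, the phosphatase that reverses its action, fell by 1.35. In glycogen metabolism 2 of 20 rose. *Ppp1r3c*, the subunit that targets phosphatase to glycogen and favours its synthesis (chromosome 19, 36731731 to 36736653), rose from 517.4 to 1472 CPM, a change of 1.51 (1.48 to 1.54). In GR-mKO muscle it stood at 131 and 233 CPM, below both GRfl/fl libraries. *Pygl* rose by 1.59, the branching enzyme *Gbe1* changed by 0.93, and *Phkg1*, *Pgm1* and *Ugp2* had changes between -0.65 and -0.54. *Prkag3*, the AMPK subunit of fast glycolytic muscle, fell from 192 to 64.4 CPM (-1.57), with 196 and 185 CPM in GR-mKO muscle.

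Among lipid genes 8 of 25 of fatty acid and triglyceride synthesis rose and none fell, and 3 of 36 of fatty acid uptake and oxidation rose and none fell. *Fasn* (fatty acid synthase) rose from 31.5 to 177 CPM and *Scd1* (stearoyl-CoA desaturase) from 181 to 967 CPM, and both also rose in GR-mKO muscle, by 2.05 and 2.09. *Acaca*, *Thrsp*, *Gpat3*, *Agpat2*, *Elovl6* and *Dgat2* rose by 1.03 to 1.42. Their regulators were lower without passing 2-fold, in that *Srebf1* changed by -0.72 and *Mlxipl* (ChREBP) went from 68.6 to 34.1 CPM. On the oxidative side *Angptl4*, an inhibitor of lipoprotein lipase (chromosome 17, 33773750 to 33781830), rose from 2.06 to 17.3 CPM in GRfl/fl and from 1.64 to 16.1 CPM in GR-mKO muscle. The fatty acid transporter *Cd36* (1.16) was another of the rises, and *Ucp3* went from 141 to 85.0 CPM in GRfl/fl and from 104 to 193 CPM in GR-mKO muscle. No PPAR or PGC-1 gene of 20 rose, and *Ppargc1a* changed by -0.68. Of 26 cholesterol genes *Acat2* and *Sqle* rose and *Mvk* fell, all under 8 CPM in both libraries.

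Fat cell transcripts moved with the lipogenic genes. Of 21 adipocyte markers 11 rose and 1 fell, with a median of 1.11, and the summed level of the list went from 705 to 1542 CPM in GRfl/fl and from 729.9 to 1043 CPM in GR-mKO muscle, where 6 rose and the median was 0.60. *Adipoq* (adiponectin) rose from 14.6 to 63.0 CPM, *Plin1* (the lipid droplet coat) from 13.6 to 42.5 CPM and *Retn* (resistin) from 5.93 to 21.6 CPM; *Lep* (leptin) changed by 5.23. *Cfd* (adipsin) fell from 53.4 to 22.6 CPM. In a whole-muscle sample more cells of a type and more RNA per cell cannot be told apart, and the part of fat cells in the lipogenic rises was not tested.

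Of 25 amino acid transporters 3 rose, namely *Slc38a2* (SNAT2, a glutamine and alanine carrier), from 233 to 546 CPM (1.23), *Slc3a2* (the heavy chain shared by exchangers), from 14.6 to 32.0 CPM, and *Slc7a10*, which is also in the adipocyte list. *Slc7a2* (0.71), *Slc38a3* (0.63) and *Slc1a5* (0.81) were higher by less, and the creatine transporter *Slc6a8* fell from 116 to 53.9 CPM (-1.09). *Slc38a2* changed by 0.37 and *Slc6a8* by 0.27 in GR-mKO muscle. Among 29 enzymes of glutamine, alanine and branched-chain metabolism *Prodh* (proline dehydrogenase, 4.84 to 11.47 CPM) and *Bcat2* rose. *Glul* (glutamine synthetase) went from 464 to 662 CPM in GRfl/fl (0.51) and from 330.3 to 229 CPM in GR-mKO muscle (-0.52), and *Gpt2* (an alanine transaminase) from 323 to 258 CPM. The rise of *Bcat2* (4.59 to 33.2 CPM) stood against 52.1 and 41.3 CPM in GR-mKO muscle, so the vehicle-treated GRfl/fl library was the one apart.

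The polyamine enzymes held one of the largest falls by count. *Amd1* (S-adenosylmethionine decarboxylase; chromosome 10, 40287458 to 40302186) stood at 2099 CPM with vehicle and 401 CPM with CORT in GRfl/fl muscle, a change of -2.39 (-2.42 to -2.35), and at 982 and 819.9 CPM in GR-mKO muscle. *Smox* (spermine oxidase) fell from 283 to 79.2 CPM in GRfl/fl muscle and went from 107 to 60.8 CPM in GR-mKO muscle. *Odc1*, the first enzyme of the pathway, went from 152 to 96.2 CPM (-0.65), and *Sat1*, which acetylates polyamines for export, from 3.45 to 6.79 CPM (0.88). The list summed to 3017 and 999.8 CPM in GRfl/fl and 1735 and 1494 CPM in GR-mKO muscle. Its median, -0.10 over 13 genes, was close to that of all genes, and the 2 that fell were abundant members.

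Mitochondrial and ribosomal gene families moved little as families. The 13 mitochondrial-encoded respiratory transcripts had a median of 0.19 with none past 2-fold, and ranged from -0.21 (*mt-Co1*) to 0.89 (*mt-Atp8*). The 80 nuclear-encoded subunits had a median of -0.11, with 1 rise and 3 falls. None of 19 tricarboxylic acid cycle genes passed 2-fold, and 78 mitochondrial ribosomal proteins had a median of -0.20 with 1 fall. Of 76 cytosolic ribosomal proteins 6 rose and 2 fell around a median of -0.05, and of 54 translation factors *Eif2s2* alone rose. Several of these calls rested on the vehicle-treated GRfl/fl library. *Rps27a* read 2.64 CPM with vehicle in GRfl/fl muscle and 53.9, 99.6 and 83.6 CPM in the other libraries, *Rpl38* 10.2 against 51.3, 99.7 and 94.6 CPM, and the complex I subunit *Ndufa3* 12.7 against 90.2, 153 and 177 CPM. In each the vehicle-treated GRfl/fl library was low and the rest alike or higher. Across all tested genes 54 entries were at least 2-fold lower in that library than in each of the other 3, and 9.26% of them belonged to genes with 1 coding transcript, against 29.7% of all tested genes. Beyond the tested genes, 23 entries were listed at 0 in the vehicle-treated and 17 in the CORT-treated GRfl/fl library while each of the other 3 libraries held 5 CPM or more. For the vehicle- and CORT-treated GR-mKO libraries the numbers were 12 and 17. None of these entries was a gene with 1 coding transcript. Restricting to such genes left median changes of -0.04 for 27 ribosomal proteins and -0.16 for 27 nuclear-encoded respiratory subunits.

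The circadian clock lists moved in opposite directions. In this oscillator ARNTL and its partners activate the period, cryptochrome and REV-ERB genes and the PAR-domain factors, which in turn repress or relay the rhythm. Of 6 activators and late-phase genes all were above 0 and 2 rose, *Arntl* (Bmal1; chromosome 7, 113207465 to 113314126) from 10.4 to 34.0 CPM (1.66, 1.48 to 1.94) and *Nfil3*, a repressor that peaks late, from 42.1 to 131 CPM (1.63). Of 16 output and negative-arm genes 3 fell and 1 rose around a median of -0.74. *Dbp*, a PAR-domain factor, stood at 116 CPM with vehicle and 3.37 CPM with CORT in GRfl/fl muscle and at 149.5 and 71.3 CPM in GR-mKO muscle, so the CORT-treated GRfl/fl library lay far below the rest. Its relatives *Tef* and *Hlf* changed by -0.76 and -0.73. *Nr1d1* (REV-ERB alpha) fell from 289 to 126 CPM and *Per1* from 80.6 to 33.1 CPM, while *Cry1* rose from 13.2 to 27.7 CPM. *Per3*, *Ciart*, *Usp2* and *Nr1d2* had changes of -0.96 to -0.78, and *Per2*, *Bhlhe40* and *Bhlhe41* of -0.26 to 0.08. In GR-mKO muscle the medians of the lists were 0.51 and -0.26, and *Dbp* was the sole member of the output list to pass 2-fold, at -1.06. The hour at which each group was collected was not used here, and its part in these values was not tested.

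Heat shock proteins, the chaperones that refold proteins and also hold the unbound GR, included many rises. Of 41 members of the HSP70 and HSP90 systems 8 rose and 1 fell, with a median of 0.41. The inducible HSP70 genes *Hspa1a* and *Hspa1b* are near-identical neighbours that can share reads; they stood at 33.4 and 29.5 CPM with vehicle and at 733 and 733 CPM with CORT in GRfl/fl muscle. In GR-mKO muscle they rose from 15.003 and 13.7 to 126 and 119 CPM. *Hsp90aa1*, the inducible HSP90 of the receptor's own chaperone complex (chromosome 12, 110690605 to 110702728), rose from 53.7 to 256 CPM, a change of 2.24 (2.16 to 2.35), and the constitutive *Hsp90ab1* changed by 0.38. The HSP70 partners *Dnajb1* (2.39), *Dnajb4* (1.69) and *Dnaja1* (1.64) rose, as did the nucleotide exchange factor *Bag1* (1.46), while *Bag2* fell by 1.17. *Hspa8*, the constitutive HSP70, went from 878 to 1656 CPM. The chaperones of other compartments, *Hspa5* and *Hsp90b1* of the endoplasmic reticulum and *Hspd1* of the mitochondrion, changed by 0.71, 0.62 and 0.71. The factor *Hsf1* changed by -0.26. Of 7 small heat shock proteins *Cryab* (alpha-B crystallin, 530.2 to 1226 CPM), *Hspb1* (HSP27, 290.0 to 663 CPM) and *Hspb7* (509.6 to 1052 CPM) rose, and *Hspb8* changed by -0.43. The corresponding GR-mKO changes were 0.39, 0.50 and 0.09.

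**Figure D4:**
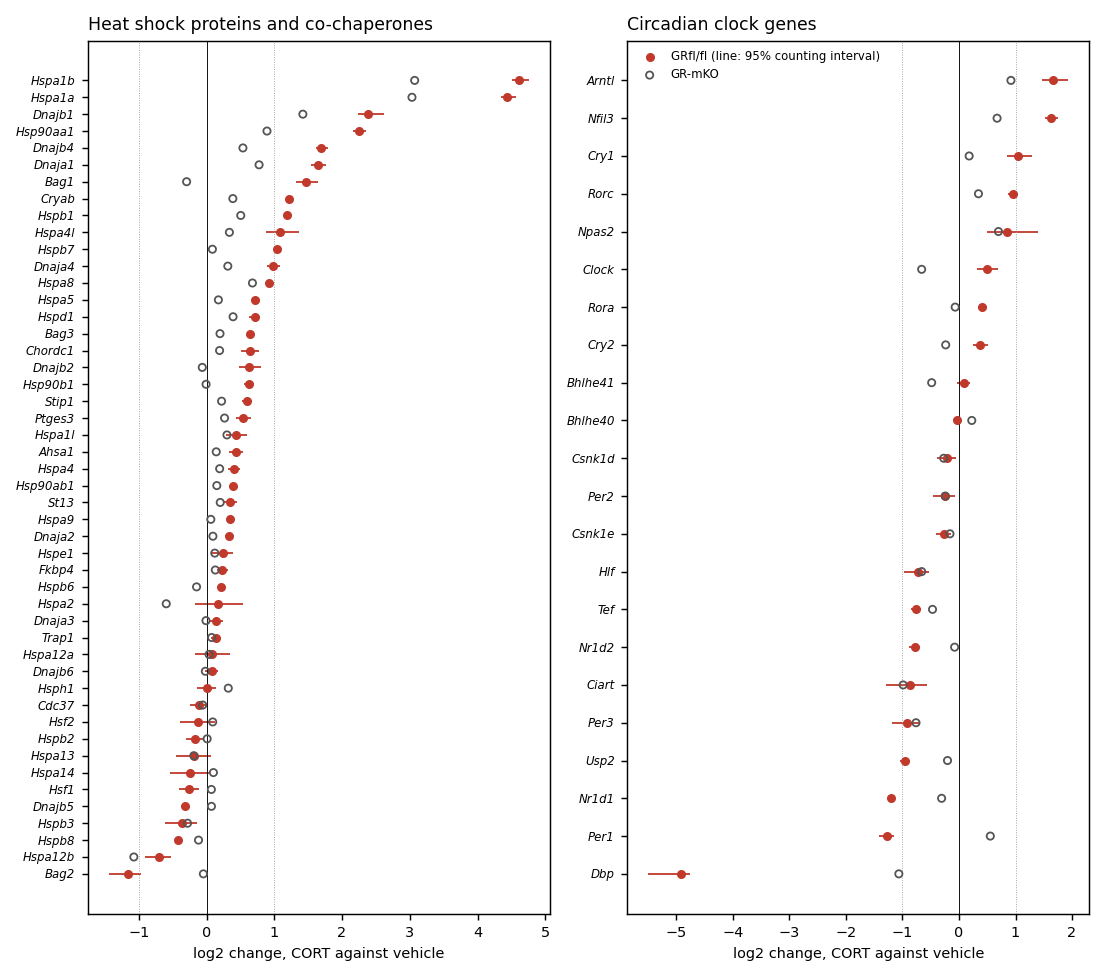
Log2 change with CORT of heat shock proteins and co-chaperones (left) and of clock genes (right) with at least 5 CPM in the higher GRfl/fl library: filled red, GRfl/fl with its 95% counting interval; open grey, GR-mKO; dotted lines, 2-fold. *Hspa1b* and *Hspa1a* lie above 4 and *Dbp* below -4 in GRfl/fl muscle, and most GR-mKO points lie nearer to 0.

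Promoter letters were read for 5 of the lists, from RefSeq sequences of the 250 bases before each start (GRCm38.p6). The heat shock element was searched as GAANNTTC or TTCNNGAA, which read the same on both strands, the core of the metal response element as TGCGCNC or TGCACNC, the GR half-site as AGAACA the E-box of the clock as CACGTG and its D-box as TTATGTAA or TTACGTAA, all on both strands, and overlapping matches of a motif were kept. The heat shock element occurred in 8 of 34 promoters of the HSP70 and HSP90 list and 2 of 5 of the small heat shock list, against 12.9% of all 32536 promoters. The E-box occurred in 5 of 13 clock output promoters, against 6.04%, the D-box in 1 of 13, against 0.925%, the metal response core in 6 of 14 promoters of the metallothionein and zinc transporter list, against 21.5%, and the GR half-site in 2 of 21 promoters of the classic GR targets, against 16.03%. Matches are descriptions of letters and not of binding. Printed are the promoters of the members with the largest change among those with a promoter in the table (*Cryab* has none), where they held a match, with the match in capitals and read 5′ to 3′ on the gene's strand: *Hspa1b* (chr17:34959239-34959488, minus strand), *Hspb1* (chr5:135887669-135887918, plus strand) and *Slc39a3* (chr10:81037316-81037565, minus strand), and that of *Mt2* (chr8:94172368-94172617, plus strand), added after its value was seen because its group rose.
Hspa1b: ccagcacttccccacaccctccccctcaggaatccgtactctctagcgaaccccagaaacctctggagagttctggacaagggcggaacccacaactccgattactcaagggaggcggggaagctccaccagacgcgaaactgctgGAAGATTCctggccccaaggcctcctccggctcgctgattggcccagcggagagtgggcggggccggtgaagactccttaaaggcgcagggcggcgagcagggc
Hspb1: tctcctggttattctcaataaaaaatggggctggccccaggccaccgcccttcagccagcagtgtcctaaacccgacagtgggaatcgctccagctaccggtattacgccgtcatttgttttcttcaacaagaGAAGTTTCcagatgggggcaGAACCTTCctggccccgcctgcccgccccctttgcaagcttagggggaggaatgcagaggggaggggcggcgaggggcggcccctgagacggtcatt
Slc39a3: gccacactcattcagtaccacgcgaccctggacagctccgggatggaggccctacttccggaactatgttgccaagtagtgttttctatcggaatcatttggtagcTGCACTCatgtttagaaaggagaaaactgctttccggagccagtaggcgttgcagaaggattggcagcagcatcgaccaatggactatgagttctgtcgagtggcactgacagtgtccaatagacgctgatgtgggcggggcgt
Mt2: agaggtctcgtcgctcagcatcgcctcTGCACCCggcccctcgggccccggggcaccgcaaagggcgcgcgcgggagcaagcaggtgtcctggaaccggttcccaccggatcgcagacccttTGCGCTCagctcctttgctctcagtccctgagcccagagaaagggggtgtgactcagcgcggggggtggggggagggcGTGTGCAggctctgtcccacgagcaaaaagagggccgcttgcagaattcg
The window of *Hspa1b* held 1 heat shock element and that of *Hspb1* held 2. The *Mt2* window held 3 metal response cores and that of *Slc39a3* 1. The promoters of *Dbp* and *Pik3r1*, the largest changes of those with a promoter in theirs, held none of the letters searched for them.

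The metallothioneins, small proteins that bind zinc and are induced by both metals and glucocorticoids, rose in GRfl/fl muscle, *Mt1* from 21.3 to 60.5 CPM and *Mt2* from 14.04 to 56.8 CPM. In GR-mKO muscle they went from 29.2 to 35.04 CPM and from 28.5 to 38.0 CPM, so the vehicle-treated GRfl/fl library was the lowest of the 4 for both. The zinc importer *Slc39a3* fell from 13.2 to 2.89 CPM (-2.01), and the other zinc transporters tested stayed under 2-fold. Of 31 antioxidant genes under NRF2 5 rose and none fell, including *Srxn1* (sulfiredoxin, 33.9 to 91.2 CPM), *G6pdx* (the first enzyme of the pentose phosphate pathway, 9.51 to 22.5 CPM) and *Gpx3* (269.5 to 569.6 CPM). *Nfe2l2* itself changed by 0.84 and *Nqo1*, a usual marker of the pathway, by -0.83. The endoplasmic reticulum stress and ATF4 list had a median of 0.14, with 1 rise, *Psat1* of serine synthesis (0.616 to 4.00 CPM), and 1 fall, *Chac1* (67.3 to 24.1 CPM).

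Acute-phase genes held the largest rise of the tested genes at 5 CPM or more. *Lcn2* (lipocalin 2, an iron-siderophore binder) changed by 5.54 in GRfl/fl and 1.37 in GR-mKO muscle. *Hp* (haptoglobin; chromosome 8, 109575128 to 109579172) rose from 14.6 to 146 CPM in GRfl/fl and from 21.1 to 101 CPM in GR-mKO muscle, and *Serpina3n*, a serine protease inhibitor, from 5.44 to 36.9 CPM and from 10.4 to 28.9 CPM. *Orm1* (an acid glycoprotein) rose by 3.32. *Il6ra*, the receptor chain for IL-6, rose from 7.07 to 36.5 CPM (2.29) in GRfl/fl muscle and read 9.23 and 5.74 CPM in GR-mKO muscle. In all 6 of 21 members rose and 1, *Cebpd*, fell, while *Saa3*, *Socs3*, *Stat3* and *C3* stayed under 2-fold, and the median was 0.12. Haptoglobin, *Lcn2* and *Orm1* are also made by fat and liver. The adipocyte list rose as given above, and the 18 tested hepatocyte markers had a median of 0.02 in GRfl/fl muscle, with *Alb* (albumin) at 4.13 and 7.47 CPM and their sum at 55.3 and 126 CPM, of which *Cyp2e1* made 39.0 and 103 CPM. In GR-mKO muscle 14 of the 18 rose and the sum was 179 and 521.3 CPM. The part of other cell types in the acute-phase rises was not tested.

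Genes of antigen presentation by MHC class II, which dendritic cells, macrophages and B cells carry, fell in 6 of 7 tested members with a median of -4.03, and in GR-mKO muscle again in 6 of 7 with a median of -3.37. *Cd74*, the invariant chain (chromosome 18, 60803848 to 60812652), stood at 105 CPM with vehicle and 4.85 CPM with CORT in GRfl/fl, and at 241 and 22.5 CPM in GR-mKO muscle. *H2-Aa* and *H2-Eb1*, chains of the presenting molecules, stood at 1.81 and 0.774 CPM with CORT against 37.2 and 26.9 CPM with vehicle, and the peptide-loading chains *H2-DMa* (-1.80) and *H2-DMb1* (-2.69) fell as well. The list as a whole summed to 219 and 11.54 CPM in GRfl/fl and 569 and 52.3 CPM in GR-mKO muscle. H2 genes resemble each other, and reads may be shared among them. In MHC class I and the immunoproteasome 4 of 21 fell, *H2-Q6* (-2.29), *H2-Q7*, *Psmb8* (-1.64) and *Psmb9* (-1.501), while *B2m* changed by -0.07. Of 45 interferon-stimulated genes none rose and 6 fell, led by *Iigp1* (9.03 to 1.79 CPM) and *Irgm2* (17.6 to 5.49 CPM), with a median of -0.35.

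Markers of the cells that carry MHC class II did not all go the same way in GRfl/fl muscle. Of 29 macrophage and dendritic cell markers 3 fell, *Lyz1* (10.2 to 2.12 CPM), *Itgax* (CD11c, 1.31 to 0.206 CPM) and *Clec9a* (1.36 to 0.412 CPM), and 1 rose, *Tyrobp* (1.04 to 3.33 CPM), with a median of -0.17. *Csf1r*, the macrophage growth factor receptor, went from 13.2 to 19.1 CPM and *Lyz2* from 66.2 to 67.8 CPM, and the list summed to 279 and 262 CPM. In GR-mKO muscle 22 of the 29 fell, the median was -1.33 and the sum went from 849 to 325 CPM, *Csf1r* from 49.7 to 11.4 CPM. Of 5 tested B cell and plasma cell markers 2 fell, *Ighm* from 61.7 to 12.6 CPM and *Ighg2c*, and none of 6 T cell and 4 neutrophil markers passed 2-fold, all of them at low level. The part of cell number in the MHC class II fall was not tested. Chemokines and their receptors included 5 falls, led by *Ccl21a* (19.7 to 3.80 CPM) and *Ccl21d*, near-identical copies, and 2 rises. *Cxcl13*, which attracts B cells (chromosome 5, 95956951 to 95961068), rose from 0.959 to 16.8 CPM in GRfl/fl and from 0.846 to 8.64 CPM in GR-mKO muscle. Complement genes had 2 falls among 18, *Cfd* and *Cfp*, and a median of -0.06.

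Many connective tissue genes fell. Of 39 collagens none rose and 14 fell in GRfl/fl muscle, with a median of -0.66, and 1 rose and 17 fell in GR-mKO muscle, with a median of -0.80. The fibrillar collagens *Col1a1* (chromosome 11, 94936224 to 94953042), *Col1a2* and *Col3a1* stood at 399, 345 and 381 CPM with vehicle and 75.1, 79.0 and 63.0 CPM with CORT in GRfl/fl muscle, changes of -2.40, -2.12 and -2.59. In GR-mKO muscle the changes were -2.23, -2.10 and -2.65. The microfibrillar *Col6a2* (-1.74) and *Col6a3* (-1.80) and the basement-membrane associated *Col15a1* (-2.27) fell too. *Col12a1*, *Col22a1*, *Col4a4* and *Col7a1* lay between -0.16 and 0.34, so the fall was not shared by all collagens. Of 16 fibroblast markers 9 fell, with *Thy1* at -1.88, *Lum* (lumican) at -1.25 and *Pi16* at -1.22, and *Pdgfra*, a defining marker, at -0.53. The fibroblast sum was 3021 and 2165 CPM in GRfl/fl and 4299 and 2616 CPM in GR-mKO muscle, most of it *Gsn*. The part of fibroblast number in the collagen fall was not tested.

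In the wider matrix list 3 of 41 genes rose and 5 fell. *Fn1* (fibronectin, 102 to 31.7 CPM), *Mmp2* (gelatinase A, 89.7 to 28.6 CPM) and *Fbn1* (fibrillin, 101 to 38.8 CPM) fell, whereas *Thbs1* (thrombospondin, 15.4 to 47.9 CPM), the crosslinking enzyme *Lox* (15.5 to 46.1 CPM) and the protease *Adamts1* (52.2 to 136 CPM) rose. *Timp3* went from 245 to 246 CPM. Tendon markers had 3 falls among 9, *Kera* (-2.78), *Tnmd* (-1.59) and *Chad* (-1.08), whereas *Comp* and *Scx* changed by 0.18 and 0.32. Endothelial markers had a median of -0.29 and 2 falls of 19, *Aplnr*, the apelin receptor (16.8 to 2.31 CPM), and *Robo4* (15.4 to 6.82 CPM). The ligand *Apln* fell with it, from 4.37 to 0.617 CPM in GRfl/fl and from 4.30 to 0.590 CPM in GR-mKO muscle. *Pecam1* changed by 0.27 and *Cdh5* by -0.49. Of 10 nerve markers 1 fell, and *Mbp* and *Sox10* changed by -0.26 and -0.14. None of 6 red blood cell markers passed 2-fold.

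**Figure D5:**
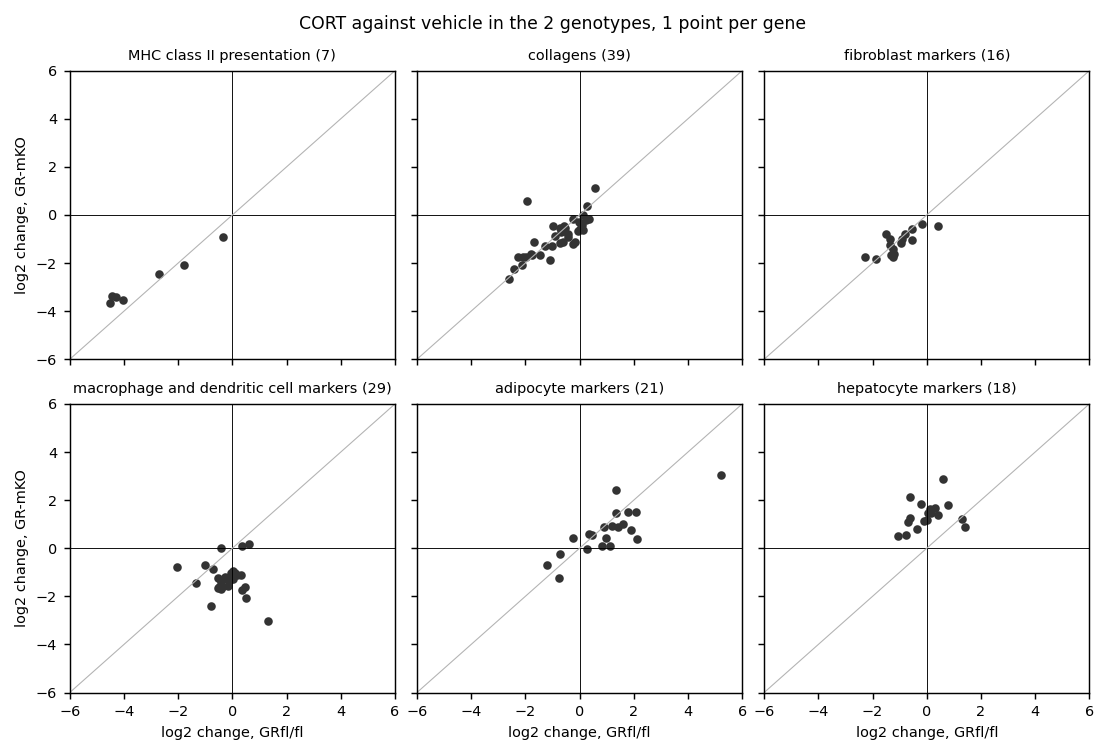
Log2 change with CORT of each tested gene in GRfl/fl (x axis) and GR-mKO (y axis) gastrocnemius, for 6 lists with their number of genes; the grey line marks equal change. MHC class II genes and collagens lie mostly below 0 in both genotypes. Macrophage markers have medians of -0.17 in GRfl/fl and -1.33 in GR-mKO muscle, and hepatocyte markers of 0.02 and 1.32.

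Immediate-early genes, which respond within minutes to activity or stress, divided into 4 rises and 4 falls among 25, with a median of -0.39 against 0.55 in GR-mKO muscle. *Atf3* rose from 13.4 to 116 CPM (3.07), *Klf10* from 9.53 to 65.9 CPM (2.73), *Nr4a3* from 14.6 to 49.3 CPM and *Jun* from 194 to 406 CPM. *Fosb* fell from 32.9 to 4.41 CPM, *Egr1* from 114 to 42.7 CPM and *Ier2* from 29.6 to 14.5 CPM, and *Egr2* fell at low level. *Fos* went from 158 to 86.1 CPM in GRfl/fl and from 156 to 286 CPM in GR-mKO muscle. Of 22 growth arrest genes *Cdkn1a*, *Sesn1* and *Ccng2* (1.06) rose and *Gadd45g* fell from 88.4 to 26.2 CPM, while the p53 targets *Mdm2* and *Ccng1* changed by -0.33 and 0.01. Proliferation genes had 3 falls of 31, *Top2a*, *Mki67* and *Aurka*, the former pair under 1 CPM in both libraries.

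Of 25 tested secreted factors known from muscle 2 rose and 5 fell. *Mss51*, listed with them as a muscle gene under myostatin, rose from 94.0 to 374 CPM (1.99), and *Angptl4* rose as given above. *Ostn* (musclin, an activity-regulated peptide) fell from 15.7 to 4.33 CPM (-1.75) and read 18.5 and 19.9 CPM in GR-mKO muscle, and *Il15* fell from 1.88 to 0.428 CPM. *Apln*, *Igf1* and *Bmp7* fell in both genotypes. *Vegfa* went from 197 to 175 CPM in GRfl/fl and from 86.8 to 129 CPM in GR-mKO muscle.

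Outside the lists, the largest rises at 5 CPM or more included *Abca3* (a lipid transporter, 0.807 to 13.99 CPM), *Dennd1b* (1.75 to 24.1 CPM) and *Cdsn* (corneodesmosin, 0.352 to 8.03 CPM). *Abca3* read 16.1 and 10.99 CPM and *Dennd1b* 12.7 and 11.1 CPM in GR-mKO muscle. For both, the vehicle-treated GRfl/fl library was again the one apart, and each gene has 3 coding transcripts. *Cdsn*, with 1 coding transcript, also rose in GR-mKO muscle (2.35). The largest falls included *Cish*, a feedback inhibitor of growth hormone and cytokine signalling (chromosome 9, 107296026 to 107302784), which fell from 32.3 to 2.06 CPM (-3.68, -4.47 to -3.51) and read 7.80 and 9.49 CPM in GR-mKO muscle. *Socs2*, its relative, changed by -0.29. *Shoc2* (a scaffold of RAS signalling) fell, with a change of -3.504, and its gene has 3 coding transcripts. The fall of *Gm8797* rested on the vehicle-treated GRfl/fl library alone, at 20.04 CPM against 0.449, 0.457 and 0.316 CPM elsewhere.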

How the data were processed

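RNA of gastrocnemius was sequenced by the study as 100-base paired reads on a DNBSEQ-G400. The authors deposited expected counts, estimated with Salmon 1.2.1 on GENCODE M20 protein-coding transcripts (mm10) and scaled with tximport to lengthScaledTPM in R 3.5.0, 1 entry per gene symbol; where a symbol occurred more than once, the entry with the largest total was kept. Each of the 22273 entries carries 1 transcript identifier, and all matched GENCODE M21, which gave positions and numbers of coding transcripts. Counts were divided by the library total. The genes tested, the log2 change and the 2-fold call are defined with the results; intervals used rounded counts. The members and the 61 lists were chosen with earlier results of these data known. By rule the text names 12 set genes, the 10 largest rises and 10 largest falls at 5 CPM or more and up to 2 genes per list and direction, 143 in all, of which 5 are not reported here; 146 others were chosen after their values were seen. Alternatives were TMM (edgeR 4.0.16 in R 4.3.3) and median-of-ratios factors, added 0.1 or 2 CPM, no filter or a mean of 5 CPM, folds of 1.5 and 3, the counting interval, a NOISeq probability of 0.9 (the method of the study, rebuilt with simulated replicates) and genes with 1 coding transcript. The 2-fold call and the interval were checked on simulated counts with known changes. Python 3.11.15, numpy 2.4.6, pandas 2.3.3, scipy 1.17.1 and matplotlib 3.10.9 were used. Promoters were taken from RefSeq (GRCm38.p6). With 1 library per group, no test between groups was run.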

Additional observations from a re-analysis of the deposited data

Results flagged for a closer look

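Among 284 genes considered for the text, 4 were past 2-fold in opposite directions in the genotypes. With 1 library per group the difference was not tested for any of them. *Chac1*, a glutathione-degrading enzyme, changed by -1.46 in GRfl/fl muscle (67.3 to 24.1 CPM) and by 1.62 in GR-mKO muscle (30.6 to 95.3 CPM). *Fosb*, an immediate-early factor, changed by -2.77 (32.9 to 4.41 CPM) and 1.41 (14.4 to 39.0 CPM). *Kcnf1*, a silent potassium channel subunit, changed by 1.67 (11.4 to 37.3 CPM) and -1.32 (2.95 to 0.886 CPM). *Tyrobp*, a signalling adaptor of macrophages, changed by 1.31 (1.04 to 3.33 CPM) and -3.01 (11.6 to 1.00 CPM).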

How the results depend on the processing

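The counts of genes past 2-fold stayed within 1.5 times of the values above with TMM or median-of-ratios factors. The added rule on the counting interval removed no gene and is no separate check, since the added 0.5 CPM already keeps genes with few counts short of 2-fold. In GRfl/fl muscle other settings gave 1672 genes (1018 lower) with 0.1 CPM added, 571 (267 higher, 304 lower) with 2 CPM added, 662 higher without the filter, 611 (261 and 350) at a mean of 5 CPM, 3058 (1132 and 1926) at 1.5-fold, 292 (136 and 156) at 3-fold, 462 (216 and 246) by NOISeq and 286 (116 and 170) of 4018 genes with 1 coding transcript. In GR-mKO muscle the same settings gave 1445 (326 and 1119), 394 (112 and 282), 1401 (397 higher), 389 (98 and 291), 2557 (585 and 1972), 236 (79 and 157), 271 (76 and 195) and 249 (52 and 197). NOISeq and the 2-fold rule shared 455 genes in GRfl/fl muscle, 625 were called by the fold alone and 7 by NOISeq alone. No list median of 0.5 or more in size and no named gene past 2-fold changed direction. For single genes this was bound to hold. An added CPM or a filter cannot change a gene's direction, and the scalings moved changes by far less than 2-fold. Of 183 named genes past 2-fold, 12 fell short of it under another scaling (*Bmp7*, *Casp12*, *Cfp*, *Chad*, *Clec9a*, *Ier2*, *Kcna5*, *Kcnh2*, *Mki67*, *Ndufc1*, *Pln* and *Slc6a8*), and *Casq2*, *Gbe1*, *Hspa8* and *Mylpf* passed it. List medians moved by under 0.25 in 391 of 415 repeats. The B cell and plasma cell median, -0.71 over 5 genes, was -1.30 with 0.1 CPM added and -0.27 with 2 CPM added. Without the filter it was -0.14 over 16 genes. With the low entries in, MHC class II lay at -1.80 over 11 genes, with a mean of 5 CPM collagens lay at -1.16 over 20, and with 1 coding transcript the GR targets lay at -0.97 over 6, FoxO and ligase genes at -0.49 over 6, immature muscle genes at 0.32 over 8, small heat shock proteins at -0.07 over 4, endothelial markers at 0.35 over 3 and growth arrest genes at -0.36 over 7, the last 5 with a sign opposite to that over all members. The cause was not tested. No paired analysis was possible because each group had 1 library, and for the same reason none could be left out. Genes with few counts limit the low lists, since 3 counts are 0.147 to 0.155 CPM.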

Other observations

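Gene families were also read from their symbols alone. Of 157 symbol stems with at least 10 tested genes, none had a median change of 0.5 or more in GRfl/fl muscle and 3 had a median of -0.5 or less. These were H2 (histocompatibility genes, 19 genes, -0.70, 8 fell), Col (collagens, 39 genes, -0.66, 14 fell) and Ccl (chemokines, 14 genes, -0.56, 4 fell). The semaphorins, guidance and adhesion ligands, had a median of -0.495 over 14 genes with 3 falls, against -0.07 in GR-mKO muscle. Genes with a Cd stem, mostly leukocyte surface proteins, had 2 rises and 4 falls of 63 in GRfl/fl and 24 falls in GR-mKO muscle, with medians of -0.43 and -0.69.

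At the other end the Hspa family (HSP70) had a median of 0.41 over 13 genes with 3 rises, and the Dnajb co-chaperones 0.24 over 10 genes with 2 rises. The annexins, membrane-binding calcium proteins, had a median of 0.32 over 10 genes with none past 2-fold, against -0.24 in GR-mKO muscle. The odorant receptors, which are listed at low counts in muscle, had a median of 0.26 over 172 genes with 9 rises and 1 fall, against -0.18 in GR-mKO muscle, and the vomeronasal receptors 0.23 over 80 genes, against -0.20.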
